A study of Mus musculus with 16 samples.

Results

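The genes described here are 6 enzymes of the urea cycle and of amino acid breakdown: Asl, Arg1, Aass, Hgd, Hpd and Tat. They were taken by symbol from 9026 named genes on a 2-colour cDNA array. The set was chosen with earlier results of these data known, so its shares set against all probes are descriptions. Arg1 had 2 rows and the other enzymes 1 each, which gives 7 of the 12760 named rows and of the 20794 rows in all. The study hybridised brain and liver RNA of 4 male mice heterozygous for HdhQ111 (HdhQ111/+), aged 18 weeks and on the C57BL/6J strain. HdhQ111 is a knock-in allele with an expanded CAG repeat in the mouse Huntington's disease gene. Each RNA was set against a pool from 4 wildtype C57BL/6J males of the same age and tissue. The pool is 1 control sample per tissue, made from the same 4 wildtype mice in both, and all HdhQ111 mice share it. A dye swap gave 2 arrays for each tissue of a mouse, 16 arrays in all.

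The urea cycle joins ammonia and aspartate nitrogen into urea and runs as a complete cycle mainly in hepatocytes. Asl, argininosuccinate lyase, splits argininosuccinate into arginine and fumarate, and Arg1, the liver arginase, cleaves arginine into urea and ornithine. Tyrosine is broken down in liver by a fixed order of enzymes. Tat, tyrosine aminotransferase, takes the first step, Hpd, 4-hydroxyphenylpyruvate dioxygenase, the next, and Hgd, homogentisate dioxygenase, the one after it. Aass, aminoadipate-semialdehyde synthase, starts the main mitochondrial route of lysine breakdown. Tat is a classic target of glucocorticoids and glucagon in liver.

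All values are deposited log2 ratios, likely of HdhQ111 over the wildtype pool, so that a value below 0 means a lower signal in the HdhQ111 RNA. No source states that direction or the log base. The arrays of a dye-swapped pair correlated negatively in all 8 pairs (Spearman's rho -0.313 to -0.078), as they also would if the arrays had not been turned to one direction. Every direction given below rests on the reading that the arrays had been turned. The value of a mouse is the mean of its 2 dye-swapped arrays, and the mouse is the replicate (n = 4). All 112 array values of the 7 rows were present, and 0 of them were ratios over 16 in size, which occur elsewhere in the table. The files hold ratios and no spot intensities. Whether a spot was above background, and whether the defining markers of each tissue were detected, could therefore not be examined. Array interquartile ranges were 0.383 to 1.275 in liver, widest for mouse 1, and 0.554 to 0.836 in brain.

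In liver, the means of all 6 enzymes lay below 0, between -0.36 for Asl and -0.14 for Arg1, with a median of -0.28, which was 0.062 on the arrays whose HdhQ111 RNA carried Cy5 and -0.595 on those where it carried Cy3. The median over all 20127 probes tested was -0.018, and 53.6% of them had a mean below 0. None of the 7 rows passed limma's test across all probes (lowest adjusted p = 0.636), and 0.0% of all probes did. At an unadjusted p under 0.05, limma found 3 of the 7 rows lower (Asl, Aass and Hpd), against 4.12% of all probes, and 0 higher, against 2.88%. As no row passed and the median differed in sign between the dyes, a lower level in HdhQ111 liver was not established. All mice were also set against the same wildtype pool. Whether the dye or the pool gave the values below 0 was not tested. Even for a true decrease, these whole-organ samples could not tell fewer hepatocytes from less RNA per hepatocyte.

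For Asl, the mouse values in liver were -0.45, -0.62, -0.15 and -0.22 for mice 1 to 4. All 4 lay below 0, and mice 1 and 2 were the lowest. The mean was -0.36 ± 0.22 (SD, n = 4; 95% interval -0.65 to -0.069, limma adjusted p = 0.636). Where the HdhQ111 RNA carried Cy5 the arrays gave -0.033, -0.25, 0.013 and -0.13, and where it carried Cy3 they gave -0.87, -0.98, -0.32 and -0.31. Asl was thus below 0 on 7 of its 8 liver arrays, the exception being the Cy5 array of mouse 3.

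Arg1, the enzyme that follows Asl in the cycle, was spotted at a pair of places 16344 rows apart. In liver its first spot had -0.19, -0.22, 0.090 and -0.23 and its second -0.026, -0.28, -0.0020 and -0.29 in mice 1 to 4. The means were -0.14 ± 0.15 and -0.15 ± 0.16 (SD, n = 4), with limma adjusted p values of 0.657 and 0.647. Mouse 3 lay at or near 0 on both spots, and the other 3 mice lay below 0. Without mouse 3 the mean of the first spot was -0.211. Where the HdhQ111 RNA carried Cy5, the first spot gave 0.27, -0.031, 0.24 and -0.14, and the second gave 0.43, -0.16, 0.19 and -0.19. Where it carried Cy3, the first spot gave -0.64, -0.41, -0.057 and -0.32, and the second gave -0.48, -0.39, -0.19 and -0.39. The spots were close to one another on every liver array.

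The 2 Arg1 spots bear on the gene names, because the names had to be moved by 11 rows to meet their values. They were compared at that offset only, so the closeness of a single pair of spots cannot decide whether the names are right. On the 8 liver arrays their ratios differed by 0.016 to 0.16, with a median of 0.098. Among 1536 other genes with 2 named spots at least 50 rows apart and complete liver values, the median of that difference was 0.39, and 99.02% of them differed by more than Arg1 did. In brain the same spots differed by 0.053 to 1.71, with a median of 0.45, against 0.42 for 1404 other genes. Of those genes, 44.59% differed by more than Arg1 did, so in brain the Arg1 spots were no closer than usual.

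**Figure D1:**
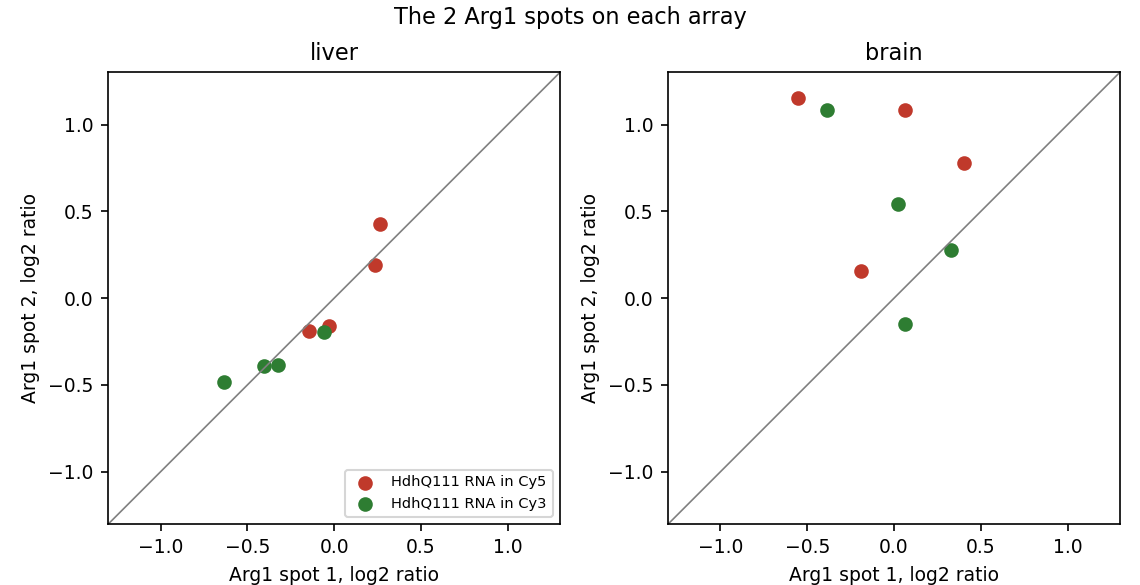
Log2 ratio (HdhQ111 over pool) of the second Arg1 spot (vertical axis) against the first (horizontal axis) on each of the 8 arrays of liver and of brain, with the line of equality and colours for the dye of the HdhQ111 RNA. Liver points lie within 0.16 of the line, while in brain the spots differ by up to 1.71.

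For the tyrosine enzymes, Tat had -0.52, -0.12, 0.015 and -0.12 in the livers of mice 1 to 4, so that mouse 1 was lowest and mouse 3 was at 0.015. Hpd had -0.42, -0.52, -0.27 and 0.0040, with mice 1 and 2 lowest and mouse 4 close to 0. Hgd had -0.42, -0.43, -0.013 and -0.19, with all 4 mice below 0 and mouse 3 nearest to it. Mouse 1 was thus low for all 3 enzymes, while Tat and Hgd lay nearest 0 in mouse 3 and Hpd in mouse 4. The means were -0.19 ± 0.23 for Tat (limma adjusted p = 0.638), -0.30 ± 0.23 for Hpd (adjusted p = 0.636) and -0.26 ± 0.20 for Hgd (adjusted p = 0.636; SD, n = 4 each). Tat depended on mouse 1: without that mouse its mean was -0.073, and with arrays centred and scaled to one interquartile range it was -0.11.

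By dye, Tat in liver gave -0.0030, 0.095, 0.47 and 0.16 on the Cy5 arrays, named by the dye of the HdhQ111 RNA, and -1.04, -0.34, -0.44 and -0.39 on the Cy3 arrays. Hpd gave 0.014, -0.11, 0.0060 and 0.16 on the Cy5 arrays and -0.85, -0.93, -0.54 and -0.15 on the Cy3 arrays. Hgd gave 0.23, -0.074, 0.22 and -0.18 on the Cy5 arrays and -1.07, -0.78, -0.24 and -0.20 on the Cy3 arrays. Every Cy3 value of these enzymes was below 0, while their Cy5 values lay on both sides of it.

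Aass, the lysine enzyme, had liver values of -0.19, -0.63, -0.34 and -0.18 in mice 1 to 4, all below 0 and lowest in mouse 2. Its mean was -0.34 ± 0.21 (SD, n = 4), with a 95% interval of -0.62 to -0.047 and a limma adjusted p of 0.636. Its Cy5 arrays read 0.57, -0.20, -0.11 and 0.15, and its Cy3 arrays -0.95, -1.07, -0.57 and -0.51. Aass had the widest gap between the dyes among the 7 rows in liver.

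From low to high the liver means ran Asl (-0.36), Aass (-0.34), Hpd (-0.30), Hgd (-0.26), Tat (-0.19) and Arg1 (-0.14, both spots averaged). Neighbours in this order were 0.024 to 0.076 apart, and none of these gaps exceeded the SD over mice of either gene. Asl minus Arg1, the ends of the order, was -0.35, -0.37, -0.20 and 0.043 in mice 1 to 4. The SD over mice was 0.15 to 0.23 for the 7 rows, with a median of 0.21, against a median of 0.25 over all liver probes.

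Across the 6 enzymes, the median in liver was -0.42, -0.47, -0.082 and -0.18 in mice 1 to 4, against -0.056, -0.019, -0.011 and -0.0035 over all probes with a value in each mouse. Within each mouse's own probes these enzymes lay at a median percentile of 18.5, 8.1, 39.6 and 16.8. Mouse 3 therefore had the weakest shift in both measures, and mouse 2 the strongest. All 6 enzymes were below 0 in mice 1 and 2, 4 of 6 in mouse 3 and 5 of 6 in mouse 4. Of the 7 rows, 4 were below 0 in every mouse (Asl, Aass, Hgd and the second Arg1 spot), against 13.0% of probes with 4 mouse values.

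The dye orientations differed in all 7 rows. On the Cy5 arrays, 13 of 28 liver values were below 0 and the row means ran from -0.099 for Asl to 0.18 for Tat. On the Cy3 arrays, 28 of 28 were below 0 and the row means ran from -0.77 for Aass to -0.36 for Arg1. All 4 Cy3 arrays were below 0 for 19.4% of all probes with such values, and all 4 Cy5 arrays for 12.2%. Of all genes, 56.6% had a liver mean below 0 on the Cy3 arrays and 49.2% on the Cy5 arrays. Only the Cy3 arrays thus placed every member low, and Asl was the single member with a mean below 0 in both orientations.

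The dye effect, taken as the Cy5 value of a mouse minus its Cy3 value and divided by 2, had a median of 0.31 over the 6 enzymes in liver, against 0.031 over all probes. It was 0.44 ± 0.23 for Aass, 0.26 ± 0.16 for Asl, 0.37 ± 0.14 for Tat and 0.32 ± 0.13 for Hpd (SD, n = 4). In limma's test of the dye effect 0 of the 7 rows passed (lowest adjusted p = 0.193), against 0.323% of all probes. At an unadjusted p under 0.05 it was above 0 for 3 rows (Aass, Hpd and Tat), against 8.1% of all probes, and below 0 for 0 rows, against 11.3%. The mean of both arrays cancels a dye effect that is equal and opposite on the 2 arrays, and whether these effects are equal was not tested.

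**Figure D2:**
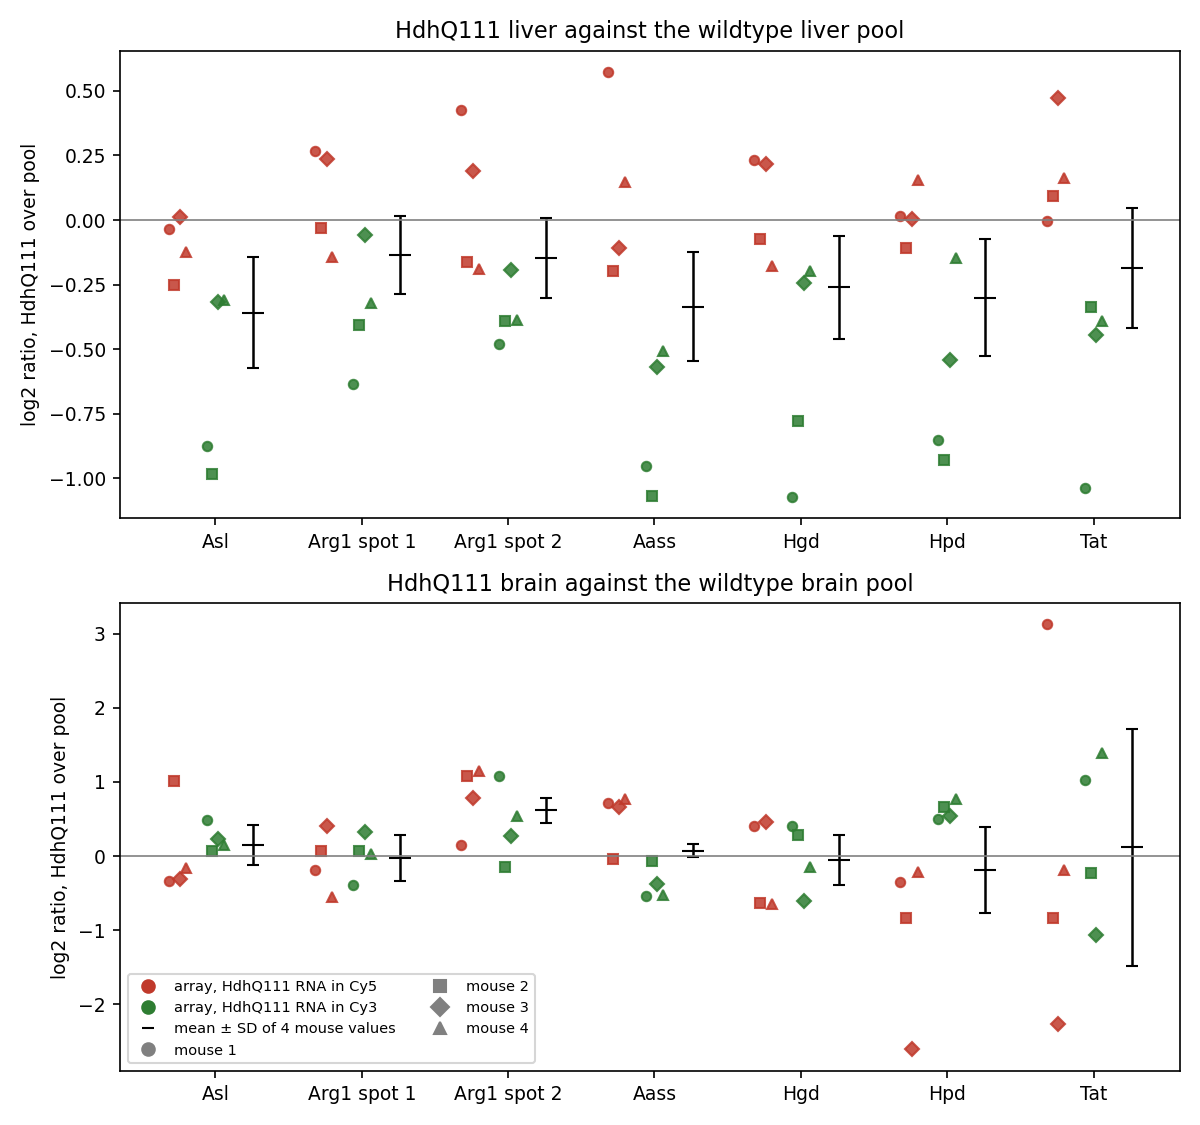
Log2 ratio (HdhQ111 over pool) of the 7 rows on every array, with liver above and brain below. Red points are arrays whose HdhQ111 RNA carried Cy5, green points Cy3, symbols mark the mice, and bars give the mean ± SD of 4 mouse values. In liver all 28 green points lie below 0 and the red points surround it.

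In brain, the 6 enzymes had no common direction. Their means ran from -0.19 for Hpd to 0.29 for Arg1 (both spots averaged), with a median of 0.097, against 0.022 over 19325 probes tested. Without mouse 1 that median was -0.072. None of the 7 rows passed limma's test (adjusted p = 0.998 for each), and 0.0% of all probes did. At an unadjusted p under 0.05, limma found 1 row higher, against 1.62% of all probes, and 0 lower, against 1.88%. Below 0 were 12 of 28 mouse values, 15 of 28 Cy5 values and 10 of 28 Cy3 values. Of all probes, 44.8% had a brain mean below 0. By dye, 37.0% of all genes had a brain mean below 0 on the Cy5 arrays and 59.7% on the Cy3 arrays.

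Among the urea cycle enzymes in brain, Asl had 0.078, 0.54, -0.040 and -0.0080 in mice 1 to 4, with only mouse 2 far from 0, and a mean of 0.14 ± 0.27 (SD, n = 4). By dye these were -0.33, 1.02, -0.31 and -0.16 on the Cy5 arrays and 0.49, 0.072, 0.23 and 0.14 on the Cy3 arrays. The second Arg1 spot had 0.62, 0.47, 0.53 and 0.85, all above 0, which 6.02% of probes with 4 brain values also were. Its mean was 0.62 ± 0.17, with a 95% interval of 0.31 to 0.93, and it ranked 39th by p among all brain probes (unadjusted p = 0.00362, limma adjusted p = 0.998). The first Arg1 spot had -0.29, 0.062, 0.37 and -0.27 and a mean of -0.032 ± 0.31. The 2 spots thus went apart in brain, by 0.16 to 1.11 in a mouse.

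By dye in brain, the second Arg1 spot gave 0.16, 1.08, 0.78 and 1.15 on the Cy5 arrays and 1.08, -0.15, 0.28 and 0.54 on the Cy3 arrays. The first spot gave -0.19, 0.062, 0.40 and -0.56 and -0.39, 0.062, 0.33 and 0.024 in the same order. The second spot was thus above 0 on 7 of 8 arrays, and the first on 5 of 8.

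Aass in brain had 0.087, -0.054, 0.14 and 0.12 in mice 1 to 4, a mean of 0.074 ± 0.088 and the smallest SD of the 7 rows there. Its Cy5 arrays were at 0.71, -0.036, 0.66 and 0.77 and its Cy3 arrays at -0.54, -0.073, -0.38 and -0.52. The dye effect of Aass was 0.44 ± 0.23 in liver and 0.45 ± 0.29 in brain.

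The tyrosine enzymes varied most in brain. Tat had 2.07, -0.53, -1.67 and 0.60 in mice 1 to 4 and a mean of 0.12 ± 1.60, so its spread far exceeded its mean. Its Cy5 arrays were at 3.12, -0.83, -2.27 and -0.18 and its Cy3 arrays at 1.02, -0.22, -1.07 and 1.38. Mice 1 and 4 lay above 0 and mice 2 and 3 below it.

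Hpd in brain had 0.080, -0.088, -1.03 and 0.28, with mouse 3 far below the others, and a mean of -0.19 ± 0.58 (SD, n = 4). All 4 of its Cy5 values were below 0 (-0.35, -0.83, -2.61 and -0.22) and all 4 of its Cy3 values above it (0.51, 0.66, 0.54 and 0.77). Of all probes, 9.05% had 4 such Cy5 values and 9.1% 4 such Cy3 values. The dyes stood in the opposite order from liver. In limma's test of the dye effect in brain 0 of the 7 rows passed, against 0.00517% of all probes. At an unadjusted p under 0.05 it was above 0 for 1 row, Aass, against 11.8% of all probes, and below 0 for 1 row, Hpd, against 8.89%. Hgd had 0.40, -0.17, -0.073 and -0.40, on both sides of 0, and a mean of -0.059 ± 0.34. Its Cy5 arrays were at 0.41, -0.63, 0.45 and -0.64 and its Cy3 arrays at 0.40, 0.29, -0.60 and -0.15.

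In brain 2 neighbouring gaps in the order of means exceeded the smaller SD of their genes and none the larger, those between Hgd and Aass (0.13) and between Asl and Arg1 (0.15). The Arg1 value here averages 2 spots that went apart, at -0.032 ± 0.31 and 0.62 ± 0.17, and its SD of 0.12 is that of the average. The median of the 6 enzymes was 0.13, -0.071, -0.056 and 0.20 in mice 1 to 4, against -0.089, 0.0080, 0.13 and 0.030 over all probes. Their median percentile within a mouse was 71.7, 38.9, 33.3 and 72.4, so mice 1 and 4 lay high and mice 2 and 3 low.

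The difference between the tissues was tested directly as liver minus brain over the 8 mouse values. It was below 0 for all 6 enzymes, from -0.50 for Asl to -0.11 for Hpd, with a median of -0.36 against -0.037 over 19055 probes, of which 55.1% were below 0. In limma's test 0 of the 7 rows passed (lowest adjusted p = 0.739), against 0.00525% of all probes, which is 1 probe. At an unadjusted p under 0.05, 3 rows were lower in liver, against 3.87% of all probes, and 0 higher, against 2.6%. The lower rows were the second Arg1 spot (-0.76, 95% interval -1.11 to -0.42), Asl (-0.50, -0.93 to -0.078) and Aass (-0.41, -0.75 to -0.066). These intervals are from the fit without the mouse as a block. In that limma fit the first Arg1 spot was at -0.10 (95% interval -0.53 to 0.32, unadjusted p = 0.589). The first and second Arg1 spots had means of -0.14 and -0.15 in liver, but of -0.032 and 0.62 in brain. With the mouse as a block, limma's unadjusted p for Asl was 0.0737 and its interval -1.08 to 0.069. The same limma fit gave an unadjusted p of 0.0386 for Aass and 0.00574 for the second Arg1 spot. The median difference was 0.00013 on the Cy5 arrays alone and -0.706 on the Cy3 arrays alone.

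Mouse by mouse, the liver value was lower than the brain value in 4 of 4 mice for Asl, Aass and the second Arg1 spot, as it was for 12.7% of probes with all 8 values. For Asl the differences were -0.53, -1.16, -0.11 and -0.21, and for Aass -0.28, -0.58, -0.48 and -0.30. Hpd was lower in liver in 3 of 4 mice, and Hgd, Tat and the first Arg1 spot in 2 of 4. For Tat the 95% interval of the difference ran from -1.89 to 1.28, so these arrays bound it poorly.

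**Figure D3:**
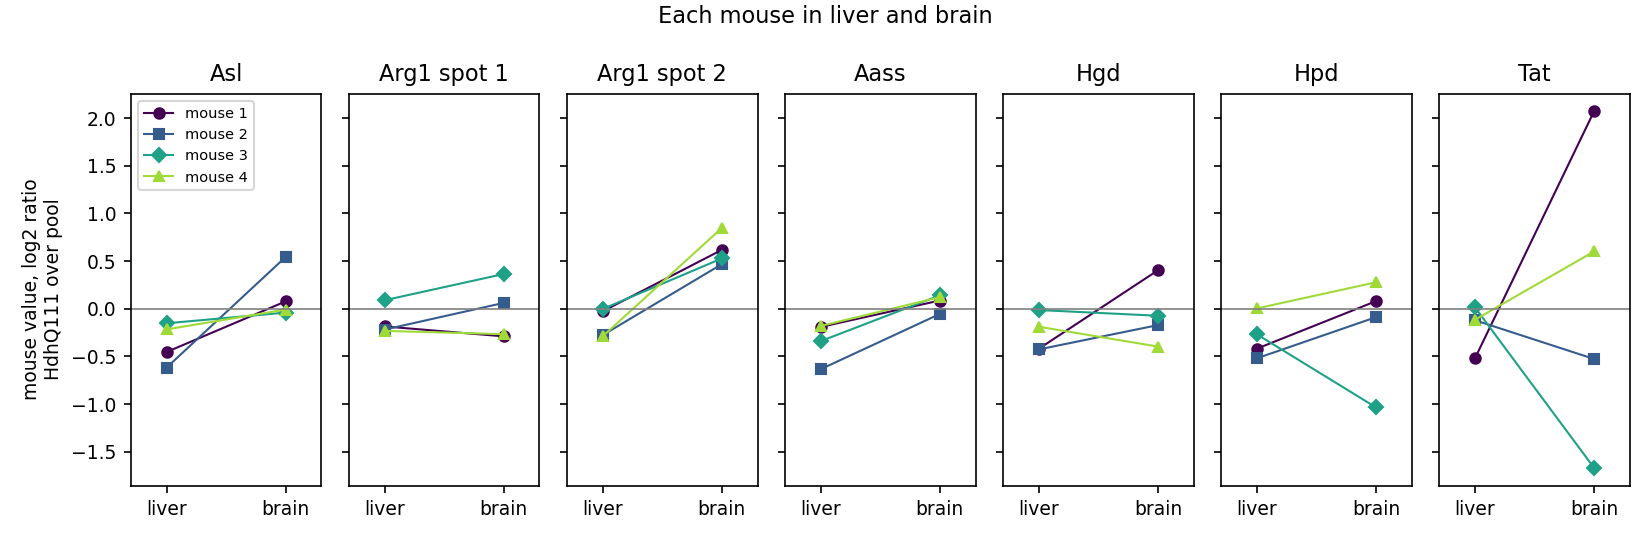
Mouse values (log2 ratio, HdhQ111 over pool, mean of 2 dye-swapped arrays) of the 7 rows in liver, on the left of each panel, and in brain, on the right, with a line for each of 4 mice. Asl, Aass and the second Arg1 spot are lower in liver in all 4 mice, while Tat spreads widely in brain.

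Other genes of the same routes were read from 6 lists of amino acid catabolism, with the rows of a gene averaged. These lists, too, were chosen with earlier results of these data known, so their shares set against all genes are descriptions. Besides the 6 enzymes, 45 listed genes were on the array and 44 had enough liver values. Of these, 39 were below 0 in liver and 5 above, with a median of -0.17 against -0.031 over 8828 genes, of which 56.8% were below 0. The dyes differed here as well: on the Cy5 arrays 17 of the 45 were below 0 in liver (median 0.051), against 49.2% of all genes, and on the Cy3 arrays 42 of 45 (median -0.351), against 56.6%. In limma's test 0 of the 44 passed, and 0.0% of all genes did. At an unadjusted p under 0.05, 6 were lower and 0 higher, against 4.96% lower and 2.64% higher of all genes. In brain 17 of 42 were below 0, as were 43.1% of all genes, with a median of 0.019 against 0.024 over 8621 genes, 1 was lower (Mat1a) and 0 higher at that p, against 1.57% and 1.55% of all genes.

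In the urea cycle, the 3 other measured genes were Ass1, which makes the substrate of Asl, at -0.019 ± 0.15 in liver, the second arginase Arg2 at -0.17 ± 0.30 and the aspartate-glutamate carrier Slc25a13 at -0.19 ± 0.13 (SD, n = 4). On the Cy5 arrays 1 of these 3 was below 0 in liver, against 49.2% of all genes. On the Cy3 arrays all 3 were, against 56.6%. Ass1 lay close to 0 while Asl, the next step, lay at -0.36. In brain these genes were at 0.12 ± 0.45, 0.021 ± 0.25 and 0.58 ± 1.27. No named row was found for Nags, Cps1, Otc or Slc25a15, so these could not be read.

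In tyrosine breakdown, the enzymes after Hgd also had means below 0 in liver. Gstz1, maleylacetoacetate isomerase, was at -0.21 ± 0.22, and Fah, fumarylacetoacetase, the last step, at -0.24 ± 0.19 and below 0 in 4 of 4 mice. The pterin cofactor enzymes Qdpr and Pcbd1 were at -0.13 ± 0.11 and -0.11 ± 0.38. All 7 measured genes of this list had means below 0 in liver, against 56.8% of all genes. On the Cy5 arrays, however, 2 of 7 did (median 0.05), against 49.2%. On the Cy3 arrays 7 of 7 did (median -0.552), against 56.6%. In brain 4 of 6 had means below 0, against 43.1% of all genes, and Fah was at -0.021 ± 0.12 and Gstz1 at -0.078 ± 0.55.

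On the lysine and tryptophan routes, the 3 other measured genes also had means below 0 in liver, against 56.8% of all genes. On the Cy5 arrays 2 of 3 did (median -0.017), against 49.2%. On the Cy3 arrays 3 of 3 did (median -0.692), against 56.6%. Aldh7a1, which follows Aass, was at -0.21 ± 0.17, the aminoadipate aminotransferase Aadat at -0.34 ± 0.22 and glutaryl-CoA dehydrogenase, Gcdh, at -0.36 ± 0.14 (unadjusted p = 0.00955, limma adjusted p = 0.598 over genes). Aadat and Gcdh were below 0 in 4 of 4 mice. In brain they were at -0.11 ± 0.24, 0.15 ± 0.18 and -0.042 ± 0.31, in the same order.

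Further along, the mitochondrial aspartate aminotransferase Got2 was at -0.29 ± 0.16 in liver, its cytosolic counterpart Got1 at -0.14 ± 0.15, the alanine aminotransferase Gpt at -0.14 ± 0.16 and glutamate dehydrogenase, Glud1, at -0.18 ± 0.21. The histidine enzymes Hal and Ftcd were at -0.14 ± 0.17 and -0.21 ± 0.20. Among branched-chain and propionate genes, Bckdha was at -0.11 ± 0.23, Ivd at -0.14 ± 0.12 and Pcca at -0.18 ± 0.40. In methionine metabolism, Mat1a was at -0.19 ± 0.19 in liver and -1.11 ± 0.75 in brain, Gnmt at -0.13 ± 0.18 in liver and Cth at -0.17 ± 0.14 in liver. The 5 listed genes with means above 0 in liver, named after their values were seen, were Bckdhb at 0.25 ± 0.36, Gldc at 0.10 ± 0.25, Hibch at 0.066 ± 0.72, Shmt1 at 0.059 ± 0.14 and Ado at 0.054 ± 0.64. The list medians in liver, with the members left in, lay between -0.14 and -0.34, against -0.28 for the 6 members. Without the members, the medians of the urea cycle, tyrosine and lysine lists were -0.167, -0.169 and -0.335.

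**Figure D4:**
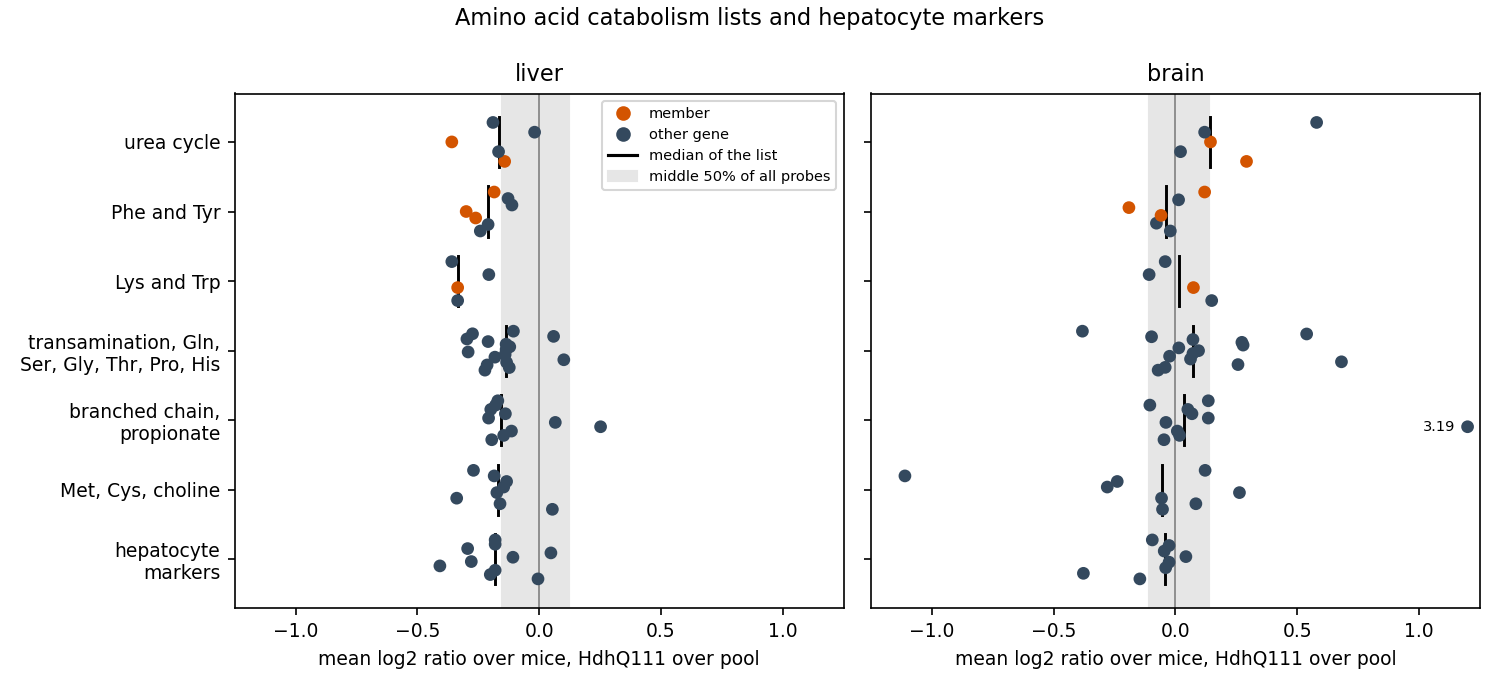
Mean log2 ratio over mice (HdhQ111 over pool) of each measured gene in 6 amino acid catabolism lists and a hepatocyte marker list, in liver on the left and brain on the right. Orange points are the 6 members, black bars list medians and the grey band the middle 50% of all probes, and 1 brain gene beyond the axis (Bckdhb, 3.19) is drawn at its edge. In liver most points, each the mean of both dyes, lie left of 0, hepatocyte markers included.

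Markers of the hepatocyte lay on the same side of 0 in liver. Of 10 measured markers 9 had means below 0, against 56.8% of all genes. The 10 means ran from -0.41 (Apoh) to 0.048 (Fgb), with a median of -0.18, and albumin, Alb, was at -0.0050 ± 0.068. On the Cy5 arrays 2 of the 10 were below 0 (median 0.11), against 49.2% of all genes. On the Cy3 arrays 10 of 10 markers were (median -0.48), against 56.6%. Their part in the result was not tested. Markers of other cells had medians in liver of -0.21 for blood (Hba-a1 at -0.68 ± 0.75, Slc4a1 at -0.21 ± 1.27 and Alas2 at 0.17 ± 0.25), -0.12 for Kupffer cells (5), -0.056 for stellate cells (5), 0.013 for cholangiocytes (5), -0.15 for endothelium (4), 0.19 for pancreas (3) and -0.018 for brain (5).

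Of 7 measured regulators that act on these enzymes, 6 had means below 0 in liver, against 56.8% of all genes. On the Cy5 arrays 3 of the 7 were below 0 (median 0.002), against 49.2%. On the Cy3 arrays 6 of 7 were (median -0.166), against 56.6%. The glucocorticoid receptor Nr3c1, which induces Tat, was at -0.16 ± 0.18, and Cebpa, a hepatocyte factor needed for urea cycle genes, at -0.23 ± 0.23 and below 0 in 4 of 4 mice. Hnf4a was at -0.034 ± 0.33, the glucagon receptor Gcgr at -0.055 ± 0.33, Foxo1 at -0.082 ± 0.26, Creb1 at -0.081 ± 0.19 and Ppargc1a at 0.00013 ± 0.14. Of 8 listed genes that respond to glucocorticoids, glucagon or fasting, only 2 had a named row. Per1 was at 0.066 ± 0.28 and Igfbp1 at 0.32 ± 0.55. None of these 9 genes had an unadjusted p under 0.05 in limma's test in liver, nor the 8 tested in brain, where Gcgr had too few values.

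The promoters of the members are shown for the 4 of 6 matched in the table of RefSeq promoters used here (GRCm38.p6), since the liver means of the 6 enzymes share a sign. Each line gives the 150 bases before the annotated start, 5′ to 3′ on the gene's strand. Capitals mark matches, on either strand, to CCAAT (the CCAAT box), TGTTCT (a core of the glucocorticoid receptor site), AGGTCA (a core of nuclear receptor sites), TTGCNNAA (C/EBP) or GTTAAT (a core of the HNF1 site).
Aass, chr6:23132987-23133136, minus strand: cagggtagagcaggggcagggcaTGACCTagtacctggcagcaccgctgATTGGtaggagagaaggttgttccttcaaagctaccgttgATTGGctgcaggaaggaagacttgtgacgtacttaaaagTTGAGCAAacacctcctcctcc
Hgd, chr16:37580003-37580152, plus strand: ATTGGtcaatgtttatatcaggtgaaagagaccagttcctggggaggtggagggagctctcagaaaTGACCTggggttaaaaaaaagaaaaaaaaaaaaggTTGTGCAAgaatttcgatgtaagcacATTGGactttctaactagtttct
Hpd, chr5:123182724-123182873, minus strand: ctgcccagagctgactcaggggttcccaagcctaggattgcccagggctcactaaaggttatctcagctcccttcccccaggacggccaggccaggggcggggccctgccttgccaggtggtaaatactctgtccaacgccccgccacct
Tat, chr8:109990286-109990435, plus strand: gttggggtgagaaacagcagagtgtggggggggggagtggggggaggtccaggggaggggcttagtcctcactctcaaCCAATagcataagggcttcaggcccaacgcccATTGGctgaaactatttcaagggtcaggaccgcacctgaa
Aass and Hgd each held CCAAT 2 times, AGGTCA 1 time and TTGCNNAA 1 time, and no matches overlapped. Tat held CCAAT 2 times and no other motif, and Hpd held 0 of the 5. Over 32851 promoter windows of the same length, CCAAT was found in 24.5%, AGGTCA in 8.58%, TTGCNNAA in 5.46%, TGTTCT in 9.62% and GTTAAT in 3.71%. These letters describe the sequence, and binding was not measured here. Sites outside the 150 bases were not searched, so a motif absent from this window can lie elsewhere near the gene.

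Likeness to the members was measured as Pearson's r over the 8 mouse values (4 liver, 4 brain, sharing a pool within a tissue), across 7166 other genes with complete values. The median profile of the 6 enzymes was closest to Kmt5b (r = 0.967), Fah (0.963), Cfap100 (0.944), Klhl8 (0.938) and citrate synthase, Cs (0.93). Fah, the end of the tyrosine route, was thus second of 7166 genes. For single enzymes the closest genes were Mrpl51 (0.967) and Cfap20 (0.948) for Asl, Cyp7b1 (0.961) and Fdps (0.959) for Arg1, and Tmem14c (0.971) and Basp1 (0.969) for Aass. They were Myo1e (0.944) and 2310030G06Rik (0.942) for Hgd, Timm44 (0.972) and Knop1 (0.962) for Hpd, and Plac9a (0.979) and Loxl1 (0.97) for Tat. With 8 values and so many genes, high r values arise easily, so these are descriptions.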

How the data were processed

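The deposited values are log2 ratios of the 2 channels of each array (base assumed; no header states it), and per the labels' protocols RNA was labelled indirectly with Cy3 or Cy5. Scanner, background correction and normalization are not given in the sources used here. Arrays held 19530 to 20584 values with medians of -0.128 to 0.246. The dye effect (Cy5 minus Cy3, divided by 2) correlated between liver and brain (Spearman's rho 0.397 over 20599 probes) and the pair mean did not (-0.008). The pair mean was therefore taken as the genotype ratio, on the reading that all arrays were already turned one way. The negative correlation of the 2 arrays of every mouse (rho -0.313 to -0.078) would also come from unturned arrays, in which case the dye effect given here would be the genotype ratio. Over the 6 enzymes in liver the median dye effect was 0.31 and the median pair mean -0.28. The direction of the liver result therefore depends on the reading chosen. That the ratio is HdhQ111 over wildtype is likely from the channel order, not stated.

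The platform table names 12771 probes, all with 1 symbol, and 8023 rows have none. All 12771 matched RefSeq genes by Entrez number. Probe n was taken to name row n + 11, a choice made on these data. Over 121 offsets, without the members, housekeeping probes (ribosomal, respiratory, proteasome and chaperonin) scored 14.72 percentile points below average scatter at 11, 1.18 at 0 and at most 6.17 elsewhere. Pairs of rows of the same gene had a mean r of 0.1002 at 11 (3058 pairs), 0.0435 at 0 and at most 0.0588 elsewhere.

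Tests used limma 3.58.1 in R 4.3.3 (lmFit, eBayes), two-sided, on probes with at least 3 mouse values, Benjamini-Hochberg adjusted over all probes at 0.05. They were run on simulated independent normal values with shifts larger than the liver mean of any member. How often shifts of the size of these liver means would pass was not examined. The tests leave out the spread among wildtype mice. Both tissues came from the same 4 mice per the labels, which makes the mouse a valid block. Brain and liver deviations of a mouse correlated by rho 0.058, -0.013, 0.086 and 0.024. Alternatives covered dyes, centring, scaling, missing values, ratios over 16, robust fits, gene averages, the offset, the block and each mouse left out.

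Members and lists were chosen with earlier results of these data known. Named were all members, every measured gene of the urea cycle, tyrosine and lysine lists and of 2 regulator lists, the measured ones among a fixed set of key genes of the other lists, and the genes of highest r.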

Additional observations from a re-analysis of the deposited data

Results flagged for a closer look

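In liver, the first Arg1 spot stood out because 1 of its 4 mouse values lay far from the rest. Mouse 3 was at 0.09, against -0.19, -0.22 and -0.23 in mice 1, 2 and 4. Of 14 sets of 4 mouse values examined (7 rows in 2 tissues), 1 stood out in this way, and chance gives about 1 in 20.

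The second Arg1 spot was below 0 in all 4 livers and above 0 in all 4 brains, with a liver-minus-brain difference of -0.76, a pattern shared by 1.08% of probes with all 8 values. Limma's test of that difference gave an unadjusted p of 8.01e-04 and an adjusted p of 0.739. Its liver values in mice 1 to 4 were -0.026, -0.28, -0.0020 and -0.29, so mice 1 and 3 lay close to 0. On the Cy5 arrays its liver mean was 0.066. The first spot of the same gene had a difference of -0.10 and a brain mean of -0.032.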

How the results depend on the processing

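The counts of probes past the threshold and the median of the 6 enzymes were recomputed under each alternative. The liver median of -0.28 kept its sign under all settings other than the Cy5 arrays alone (0.062); it was -0.595 on the Cy3 arrays alone, -0.106 with names at offset 0, and -0.336 to -0.217 with a mouse left out. On the Cy5 arrays alone Arg1 (0.083 and 0.066 for its spots), Aass (0.103), Hgd (0.050), Hpd (0.017) and Tat (0.182) lay above 0 in liver, and Asl below. The cause was not tested. In the other liver settings computed for single rows (not gene averages or offset 0, which gave medians only) the 7 rows stayed below 0, and none passed in any setting computed for rows (adjusted p 0.159 to 0.954). Without mouse 1 Tat in liver was at -0.073. The brain median of 0.097 was -0.072 without mouse 1 and up to 0.147 without another mouse, so its sign is not settled. At offset 0 it was -0.00544. In brain, Tat was at -0.039 on the Cy5 arrays, and on the Cy3 arrays the first Arg1 spot was at 0.0067, Aass at -0.377 and Hpd at 0.618. With a mouse left out, the first Arg1 spot ranged from -0.164 to 0.054, Tat from -0.531 to 0.716, Hpd from -0.347 to 0.090 and Hgd from -0.213 to 0.053. The liver-minus-brain median of -0.36 was 0.00013 on the Cy5 arrays, -0.706 on the Cy3 arrays, -0.099 at offset 0 and -0.423 to -0.224 with a mouse left out. There the first Arg1 spot (0.153), Hgd (0.152), Hpd (1.017) and Tat (0.221) were above 0 on the Cy5 arrays, and without mouse 1 Hgd, Hpd and Tat ranged to 0.0045, 0.020 and 0.458 (lowest with a mouse left out -0.339, -0.401 and -0.967). With the mouse as a replicate block, 1 probe passed and the median was -0.357. The block changed no call of a member at the adjusted threshold. For Asl limma's unadjusted p was 0.0737 with the block and 0.0257 without it. Over all probes, liver had 0 past the threshold in every setting (1409 at an unadjusted p under 0.05 as reported), brain 2 on the Cy5 arrays, 1 where 1 array sufficed and 0 to 1 with a mouse left out. The tissue difference had 2 without ratios over 16, 0 with all 4 mice required and 0 to 1 with a mouse left out. The liver dye difference had 65, against 112 with arrays centred, 225 without ratios over 16 and 0 with any mouse left out; the brain one had 1, against 0 without ratios over 16 and 0 to 1 with a mouse left out. Without intensities the precision rests on 4 mice per tissue.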
